A study of Mus musculus with 12 samples.

Results

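The transcripts of the p53 gene and of 9 of its best known target genes were followed in C2C12 cells, a line of mouse myoblasts that stop dividing and fuse into myotubes when serum is lowered. The genes were taken by symbol: Trp53, Mdm2, Ccng1, Cdkn1a, Pmaip1, Bbc3, Bax, Phlda3, Zmat3 and Psrc1. All 10 were found among 78275 gene identifiers, and all 10 passed the filter on low counts that left 15030 tested genes. Cells were transfected with siRNA to Zfp143, the mouse gene for the transcription factor ZNF143, or with a control siRNA that has no target. At 24 hours after transfection they were harvested in growth medium with 10% fetal bovine serum (uninduced), or switched to 1% horse serum and harvested on day 5 of differentiation (induced). This gives 4 groups of 3 libraries each, called uninduced control, uninduced knockdown, induced control and induced knockdown. All groups were transfected, and every library carries the same batch label. The labels give the knockdown cells as a genotype, and the control cells as WT, but the agent was a transient siRNA. Nothing in the labels ties the 3 libraries of a group to separate dishes, so the p-values measure the spread between these samples, which may be technical.

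p53 is a transcription factor that is held at low protein level by the ubiquitin ligase MDM2 and is stabilised when DNA damage, ribosomal stress or other insults block that ligase. It then activates genes that stop the cell cycle, genes that promote apoptosis through the mitochondrial pathway, and genes that feed back on p53 itself. In myoblasts the cell cycle inhibitor p21, encoded by Cdkn1a, is also part of the normal exit from the cell cycle during differentiation and can be induced there without p53. Because p53 is regulated largely at the protein level, its transcript need not follow its activity.

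p53 binds DNA at pairs of 10-letter half-sites, and the bases upstream of the members' start sites are shown first because these letters are what the members could share apart from their label. RefSeq promoter entries (GRCm38.p6, 250 bases before to 50 after a start) were matched by symbol for 8 of the 10 genes; Pmaip1 and Zmat3 had no entry. The p53 half-site, which reads as itself on the other strand, was found in 1 entry each of Cdkn1a, Mdm2, Ccng1, Bax and Trp53, or 5 of the 8 genes. Over all promoter entries 8.36% held it, and 9.55% of genes had it in at least 1 entry. In the lines below the capitals mark the matched half-sites, and each line is a stretch of 60 bases read 5′ to 3′ along the gene's strand.
Cdkn1a, chr17:29090892-29090951, plus strand: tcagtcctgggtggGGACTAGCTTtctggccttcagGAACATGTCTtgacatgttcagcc
Mdm2, chr10:117710910-117710969, minus strand: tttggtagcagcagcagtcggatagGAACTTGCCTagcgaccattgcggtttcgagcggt
Ccng1, chr11:40755437-40755496, minus strand: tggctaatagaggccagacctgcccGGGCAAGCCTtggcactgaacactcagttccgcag
Bax, chr7:45467065-45467124, minus strand: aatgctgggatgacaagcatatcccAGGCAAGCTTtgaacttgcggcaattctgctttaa
Trp53, chr11:69580259-69580318, plus strand: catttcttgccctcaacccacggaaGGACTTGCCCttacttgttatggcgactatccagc
Only exact matches were marked. By that rule Cdkn1a was the one member with a pair: its half-sites begin 73 and 51 bases before the upstream of its annotated starts, with 12 bases between them. The 10 letters right after the second of these differ from the pattern in their first letter only, and so are not marked. A pair with a spacer of 0 to 13 bases was found in 0.0731% of all entries. A match is a description of these letters and not evidence of binding.

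Total estimated counts per library ran from 13520879 to 19068306. Levels are given as CPM, a gene's counts relative to the TMM-scaled library total and not corrected for transcript length, and a gene is called higher or lower where edgeR's quasi-likelihood test, adjusted over all 15030 genes by Benjamini-Hochberg, gave p under 0.05. The siRNA target was lower in uninduced knockdown cells: Zfp143 stood at 23.2, 27.8 and 39.8 CPM in the control libraries and at 12.2, 11.9 and 10.1 CPM in the knockdown libraries (log2 fold change -1.41, SE 0.183, adjusted p = 6.12e-05). After induction its levels overlapped, with 19.7, 19.3 and 19.3 CPM against 14.7, 16.8 and 19.7 CPM (log2 fold change -0.18, SE 0.181, adjusted p = 0.646). Mitochondrially encoded genes took 6.02% of the counts of uninduced control replicate 3 and 1.95% to 3.95% in the other 11 libraries. The lowest of these, induced knockdown replicate 1, was also the library of fewest counts. Of the myoblast markers Des, Myod1, Myf5 and Cdh15 were measured in all groups, while Pax7 had 10 counts in all 12 libraries together.

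In uninduced myoblasts the Zfp143 siRNA raised 6 of the 10 genes, namely Pmaip1, Cdkn1a, Phlda3, Ccng1, Mdm2 and Psrc1, and lowered 1, Zmat3; Trp53, Bbc3 and Bax were not called. Over all genes tested 32.5% were called in this comparison, 15.4% higher and 17.1% lower. The median log2 fold change of the 10 genes was 0.59, against -0.04 for all tested genes.

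**Figure D1:**
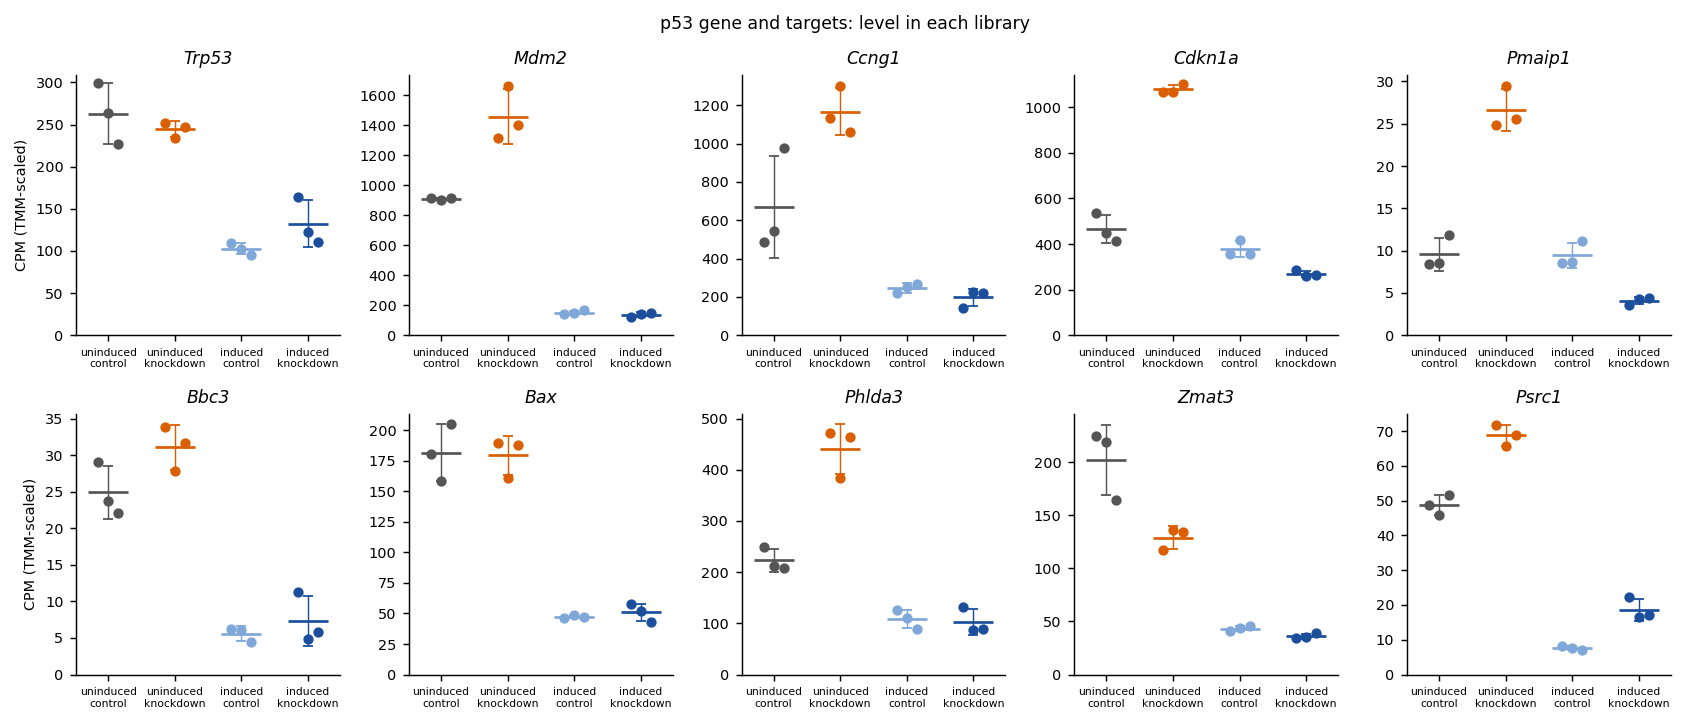
Level in TMM-scaled CPM (vertical axis from 0) of p53 and its targets in each of the 12 libraries, by group; points are libraries in replicate order, horizontal lines are means and error bars are SD of 3. Mdm2 lies between 903 and 914 CPM in uninduced control cells and at 1312 or above in uninduced knockdown cells, and falls to 165 CPM or less in all induced libraries.

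The p53 transcript itself was not called. Trp53 stood at 299, 264 and 227 CPM in uninduced control cells and at 252, 234 and 247 CPM with the Zfp143 siRNA. The knockdown values lie inside the range of the controls (log2 fold change -0.11, 95% interval -0.42 to 0.21, adjusted p = 0.621). The pseudogene Trp53-ps took at most 4 estimated counts in any library, against at least 1826 for Trp53. The libraries do not keep the strand, so reads where Trp53 overlaps its antisense neighbour Wrap53 (137 to 264 counts) cannot be told apart.

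Cdkn1a, whose product p21 inhibits cyclin-dependent kinases, is the arrest gene of the set. Its level was 536, 448 and 415 CPM in uninduced control cells and 1066, 1067 and 1101 CPM in uninduced knockdown cells. Every knockdown library was above every control, and the knockdown values lay close together (log2 fold change 1.21, SE 0.129, adjusted p = 1.06e-05; 2.31 times the control level). The exact two-sided permutation test of log2 CPM gave p = 0.1, the smallest that 3 against 3 libraries allow.

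Both feedback genes rose as well. Mdm2 stood at 914, 903 and 913 CPM in uninduced control cells and at 1312, 1659 and 1398 CPM in uninduced knockdown cells. The groups did not overlap, and the log2 fold change was 0.68 (SE 0.135, adjusted p = 0.00163). Ccng1 encodes cyclin G1, which brings the phosphatase PP2A to MDM2. Its control libraries were spread, at 488, 545 and 977 CPM, and its knockdown libraries stood at 1131, 1302 and 1063 CPM. The ranges were separate, with control replicate 3 close to the knockdown values (log2 fold change 0.80, SE 0.232, adjusted p = 0.0169). Without that library the log2 fold change of Ccng1 was 1.18 (adjusted p = 0.000124). The Ccng1 call was lost without uninduced control replicate 1 (0.62, adjusted p = 0.0638), uninduced control replicate 2 (0.67, adjusted p = 0.0758) or uninduced knockdown replicate 2 (0.71, adjusted p = 0.0595).

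The apoptosis genes were split. Pmaip1 encodes NOXA and Bbc3 encodes PUMA, BH3-only proteins that neutralise pro-survival BCL2 proteins; Bax encodes a protein that permeabilises the mitochondrial outer membrane; and Phlda3 encodes a repressor of the survival kinase AKT. Pmaip1 stood at 8.37, 8.56 and 11.8 CPM in uninduced control cells and at 24.8, 29.5 and 25.5 CPM in uninduced knockdown cells. Its fold was the largest among the 10 genes, with no overlap (log2 fold change 1.48, SE 0.168, adjusted p = 1.85e-05; 2.78 times the control level). Phlda3 stood at 249, 212 and 208 CPM in uninduced control cells and at 471, 384 and 464 CPM in uninduced knockdown cells. These ranges too were separate (log2 fold change 0.98, SE 0.172, adjusted p = 0.000669).

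Bax and Bbc3, measured in the same libraries, were not called. Bax stood at 181, 159 and 205 CPM in uninduced control cells and at 189, 161 and 188 CPM in uninduced knockdown cells. The ranges overlapped almost fully, and the 95% interval of the log2 fold change, -0.30 to 0.26, leaves out the value of each of the 6 genes that rose (log2 fold change -0.02, adjusted p = 0.945). Bbc3 stood at 29.0, 23.8 and 22.1 CPM in uninduced control cells and at 33.8, 27.8 and 31.6 CPM in uninduced knockdown cells. Here the interval is wider, -0.18 to 0.81, around a log2 fold change of 0.32 (adjusted p = 0.321). With an offset for transcript length Bbc3 passed, at 0.40 (adjusted p = 0.0331).

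The other targets went opposite ways. Psrc1, which encodes a microtubule-binding protein of the mitotic spindle, stood at 48.8, 46.0 and 51.7 CPM in uninduced control cells and at 71.7, 65.8 and 68.9 CPM in uninduced knockdown cells (log2 fold change 0.49, SE 0.127, adjusted p = 0.0084). Zmat3, which encodes a zinc finger protein that binds RNA, stood at 224, 219 and 165 CPM in uninduced control cells and at 117, 136 and 134 CPM in uninduced knockdown cells. It is the member that fell (log2 fold change -0.65, SE 0.129, adjusted p = 0.00156), to 63.7% of the control level. Control replicate 3 is the Zmat3 control nearest the knockdown values, and without it the log2 fold change was -0.77.

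Measures other than the members differed between the same 6 uninduced libraries. Mitochondrially encoded genes took 2.63%, 2.90% and 6.02% of counts in control and 3.63%, 3.95% and 3.55% in knockdown libraries. Without the library at 6.02%, the log2 fold changes of the 6 genes that rose lay between 0.54 and 1.66, and each was called. The summed level of 5 leukocyte markers was 0.878 to 2.01 CPM in control and 4.96 to 7.57 CPM in knockdown libraries. Cd68 made up most of it (mean 1.52 and 5.71 CPM). Counts summed over the libraries of a group were 3 and 34 for Cd79a, 0 and 8 for Ptprc and 0 and 1 for Cd3e. The macrophage marker Adgre1 had no counts in either group. The summed level of 6 fibroblast and smooth muscle markers was 63.6 to 70.7 CPM and 114 to 125 CPM. Pdgfra (mean 42.7 and 71.6 CPM) and Acta2 (10.9 and 36.0 CPM) were higher in the knockdown libraries. Dcn (14.5 and 12.1 CPM) went the other way. The rest of this list had few counts, summed over the libraries of a group: 2 and 1 for Cnn1, 3 and 12 for Myh11 and 0 and 1 for Lum. Of the 4 tested 2 were called higher and 2 were not called, where 15.4% of all genes tested were called higher. The 5 myoblast markers summed to 352 to 399 CPM in control and 379 to 445 CPM in knockdown libraries; 1 of the 4 tested was called, Myf5, which fell from a mean of 56.8 to 16.9 CPM. The 5 myotube markers summed to 3.40 to 3.68 CPM and 3.13 to 3.90 CPM, with Mymk (mean 0.116 and 0.998 CPM) and Acta1 (0.127 and 0.570 CPM) called higher and Myog (3.24 and 1.78 CPM) called lower. The part of these markers in the result was not tested. In bulk RNA a change in the share of cells that express a gene and a change in RNA per cell cannot be told apart.

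After 5 days of induction the siRNA comparison looked different: 1 of the 10 genes was higher (Psrc1), 2 were lower (Pmaip1 and Cdkn1a), and 7 were not called. Over all genes tested 9.49% were called, 3.73% higher and 5.77% lower. The median log2 fold change of the 10 genes was -0.11, against -0.03 for all tested genes.

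**Figure D2:**
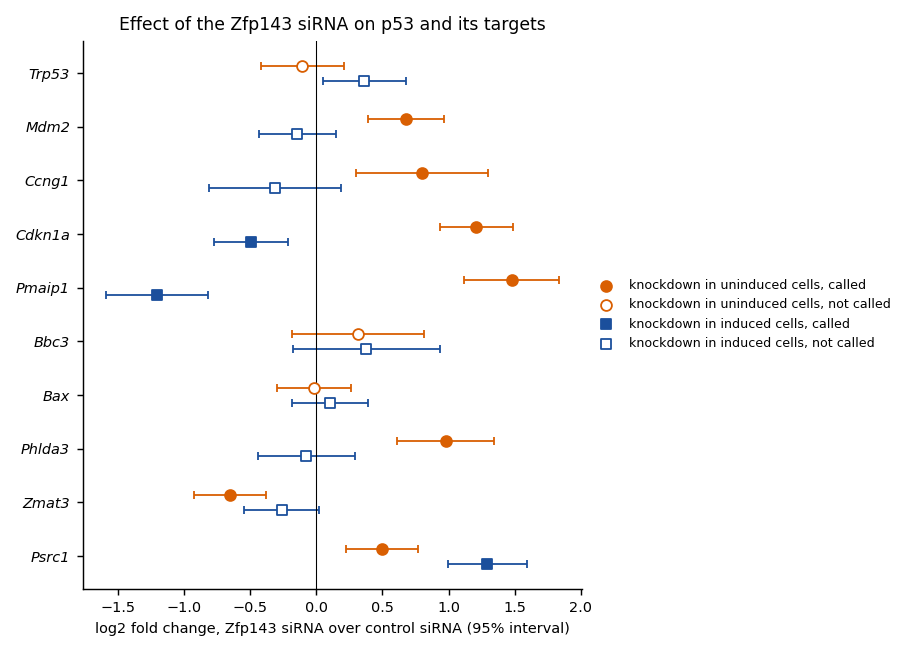
Log2 fold change of the Zfp143 siRNA over the control siRNA (horizontal axis, with 95% interval) for each gene in uninduced cells (orange circles) and induced cells (blue squares); filled symbols are called and open symbols are not. Pmaip1 is at 1.48 in uninduced and -1.20 in induced cells, Cdkn1a at 1.21 and -0.49, and Psrc1 is above 0 in both.

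Pmaip1 stood at 8.54, 8.70 and 11.1 CPM in induced control cells and at 3.59, 4.31 and 4.35 CPM in induced knockdown cells. All 3 knockdown libraries were below the controls (log2 fold change -1.20, SE 0.182, adjusted p = 0.000405), at 43.4% of the control level. Cdkn1a stood at 357.5, 419.6 and 355.5 CPM in induced control cells and at 284, 258 and 262 CPM in induced knockdown cells. The ranges were separate (log2 fold change -0.49, SE 0.129, adjusted p = 0.0237), but the Cdkn1a call was not kept in every setting. It was lost without induced control replicate 1 (-0.53, adjusted p = 0.0521), induced control replicate 2 (-0.41, adjusted p = 0.145), induced knockdown replicate 2 (-0.47, adjusted p = 0.106) or induced knockdown replicate 3 (-0.48, adjusted p = 0.0841), and with library size as the only scaling (-0.40, adjusted p = 0.137).

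Psrc1 stood at 8.07, 7.69 and 6.92 CPM in induced control cells and at 22.2, 16.5 and 17.1 CPM in induced knockdown cells. It was 2.45 times the control level (log2 fold change 1.29, SE 0.139, adjusted p = 1.92e-05), with no overlap, and was the one member that rose with the siRNA in both states.

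The remaining genes stayed under the threshold in induced cells. Trp53 stood at 109.7, 103 and 95.8 CPM in control and 164, 122 and 111 CPM in knockdown libraries; the ranges were narrowly separate, and the log2 fold change of 0.36 did not pass (95% interval 0.05 to 0.68, adjusted p = 0.171). Replicate 1, the shallow library, was the highest Trp53 value, and without it the log2 fold change was 0.18 (adjusted p = 0.522). Mdm2 was at -0.14 (adjusted p = 0.636), Ccng1 at -0.31 (adjusted p = 0.519) and Zmat3 at -0.26 (adjusted p = 0.29). Bax was at 0.10 (95% interval -0.18 to 0.39, adjusted p = 0.748) and Phlda3 at -0.07 (95% interval -0.44 to 0.30, adjusted p = 0.872). Bbc3 was at 0.38 (adjusted p = 0.48), with 11.3 CPM in the shallow library and 4.90 and 5.80 CPM in the other induced knockdown libraries, against 6.25, 6.06 and 4.41 CPM in induced control. The authors' average transcript length for Bbc3 was 1826 bases in that library and 993 to 1221 bases in the other 11. Without it the log2 fold change was -0.06 for Bbc3, -0.30 for Phlda3 (adjusted p = 0.324) and -0.13 for Ccng1 (adjusted p = 0.869).

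The myotube markers Myog, Myh3, Ckm, Acta1 and Mymk summed to 6084 to 7553 CPM in induced control and 2063 to 2695 CPM in induced knockdown libraries. The summed fibroblast and smooth muscle markers were 3055 to 3494 CPM and 1948 to 2056 CPM. Acta2 was the most abundant of them, with means of 2368 and 1402 CPM. Dcn stood at 547 and 295 CPM and Pdgfra at 363 and 317 CPM. Of the 4 tested 3 were called lower and 1 was not called, where 5.77% of all genes tested were called lower. The part of these differences in the values of the p53 targets was not tested.

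The difference between the siRNA effects was tested as an interaction, and 6 of the 10 genes passed (22.5% of all genes tested), 5 with a more negative effect in induced than in uninduced cells (background 11.8%) and 1, Psrc1, with a more positive one (background 10.6%). Induced cells were also harvested later after transfection and in another serum. Time, serum and differentiation cannot be told apart here or in the comparisons of induced with uninduced cells. The interaction was -2.68 for Pmaip1 (SE 0.248, adjusted p = 4.07e-06) and -1.70 for Cdkn1a (SE 0.183, adjusted p = 1.67e-05), the 2 genes called in opposite directions in the 2 states. It was -1.11 for Ccng1 (adjusted p = 0.0251), -1.05 for Phlda3 (adjusted p = 0.00654) and -0.82 for Mdm2 (adjusted p = 0.00678). For Ccng1 the call was lost without uninduced control replicate 1 (-0.93, adjusted p = 0.0526) or 2 (-0.98, adjusted p = 0.065), uninduced knockdown replicate 2 (-1.02, adjusted p = 0.0596), or induced control replicate 2 (-1.10, adjusted p = 0.0559) or 3 (-1.04, adjusted p = 0.0614). Without uninduced control replicate 3 the Ccng1 interaction was -1.49 (adjusted p = 0.00024). Psrc1 was at 0.80 (adjusted p = 0.00711). Trp53 (0.47, adjusted p = 0.124), Zmat3 (0.39, adjusted p = 0.147), Bax (0.12, adjusted p = 0.705) and Bbc3 (0.06, adjusted p = 0.931) did not pass. Without uninduced control replicate 3 Trp53 and Zmat3 passed, at 0.56 (adjusted p = 0.0331) and 0.52 (adjusted p = 0.0156).

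Induction lowered most of the set. With the control siRNA 8 of the 10 genes fell by edgeR and Cdkn1a and Pmaip1 were not called, where 64.1% of all genes tested were called, 33.2% higher and 30.9% lower. With the Zfp143 siRNA all 10 fell, where 66.1% were called, 36% higher and 30.1% lower. These comparisons share their libraries with the siRNA comparisons above, so they show the same levels again.

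With the control siRNA the deepest falls were those of Psrc1, at 48.8 ± 2.85 CPM before and 7.56 ± 0.583 CPM after (SD, n = 3; log2 fold change -2.69, SE 0.136, adjusted p = 3.23e-10), and of Mdm2, from 910.1 ± 5.86 to 151 ± 12.9 CPM (-2.59, SE 0.135, adjusted p = 5.66e-10). Zmat3 fell from 203 ± 33.0 to 43.3 ± 2.18 CPM (-2.23, SE 0.130), Bbc3 from 25.0 ± 3.62 to 5.57 ± 1.01 CPM (-2.16, SE 0.249) and Bax from 182 ± 23.4 to 47.3 ± 1.18 CPM (-1.94, SE 0.133). Ccng1 fell by 1.45 on the log2 scale (SE 0.233), Trp53 by 1.36 (SE 0.148) and Phlda3 by 1.05 (SE 0.172). Each of these 8 genes had its 3 induced control libraries below all 3 uninduced ones. That separation was not counted over all genes tested, of which 30.9% were called lower, so it cannot be read as particular to these genes. Against them stand Pmaip1, at 9.58 ± 1.94 and 9.45 ± 1.45 CPM (-0.02, 95% interval -0.38 to 0.35, adjusted p = 0.943), and Cdkn1a, at 466 ± 62.7 and 378 ± 36.4 CPM. The ranges of Cdkn1a overlapped (-0.30, 95% interval -0.58 to -0.03, adjusted p = 0.0507), and its call depended on the setting. It was called in 7 of 22 alternative settings and not in the others, with log2 fold changes from -0.39 to -0.14 over the 22. Among those that passed were the fits without uninduced control replicate 3 (-0.39, adjusted p = 0.00611), without induced control replicate 2 (adjusted p = 0.0365), without induced knockdown replicate 1 (adjusted p = 0.0412), with a transcript length offset (adjusted p = 0.0235), with DESeq2 (adjusted p = 0.0184) and with limma-voom (adjusted p = 0.0388).

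With the Zfp143 siRNA the level of Cdkn1a was 1078 ± 20.1 CPM before induction and 268 ± 14.1 CPM after it (SD, n = 3), a log2 fold change of -2.01 (SE 0.129, adjusted p = 6.09e-09). Pmaip1 fell from 26.6 ± 2.53 to 4.08 ± 0.43 CPM (-2.70, SE 0.178, adjusted p = 6.73e-09). Mdm2 fell by 3.41 (SE 0.135), from 1456 ± 181 to 137 ± 15.8 CPM, the largest fall among the members. Trp53 had the smallest, 0.89 (SE 0.148). Markers of myotubes moved between the same libraries, from a summed 3.13 to 3.90 CPM in uninduced to 2063 to 2695 CPM in induced knockdown cells, and the part of cell identity in these falls was not tested.

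Levels can be set beside each other between genes only per transcript length, here as the authors' TPM, a share of transcripts corrected for length. In uninduced control cells the order was Mdm2 at 429 ± 95.9 TPM, Cdkn1a at 387 ± 128, Bax at 381 ± 53.5, Ccng1 at 294 ± 41.3, Phlda3 at 276 ± 71.3 and Trp53 at 219 ± 74.0 TPM (SD, n = 3). The mean ± SD intervals of neighbours in that order overlapped. Psrc1 at 40.1 ± 7.51, Zmat3 at 40.0 ± 14.4 and Bbc3 at 28.0 ± 8.15 TPM formed a lower tier, and Pmaip1 at 6.09 ± 1.22 TPM was lowest. In uninduced knockdown cells Cdkn1a led, at 858 ± 38.5 TPM, followed by Mdm2 at 632 ± 102 and Phlda3 at 519.7 ± 27.3 TPM. In both induced groups Cdkn1a led by more than its spread, at 400.4 ± 36.9 TPM in control and 307 ± 26.9 TPM in knockdown cells, with Phlda3 next at 185 ± 17.2 and 168 ± 14.2 TPM. Ccng1, at 145 ± 23.7 and 130.04 ± 15.7 TPM, Bax, at 141 ± 11.8 and 153 ± 16.2 TPM, and Trp53, at 113 ± 3.30 and 153 ± 30.2 TPM, lay between these and Mdm2, which ranked 6 of 10 in both groups at 92.9 ± 10.4 and 92.6 ± 7.85 TPM. Pmaip1 was the lowest of the 10 in every group. On this scale uninduced control replicate 3 was the lowest control for 9 of the 10 genes, all but Ccng1. The share over all genes tested was not counted. The TMM factor of that library was 0.799, against 0.991 and 0.983 in the other uninduced control libraries. The Zmat3 value of uninduced control replicate 3, 23.4 TPM, fell inside the 19.8 to 25.3 TPM of the uninduced knockdown libraries. TMM-scaled CPM does not show that overlap.

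**Figure D3:**
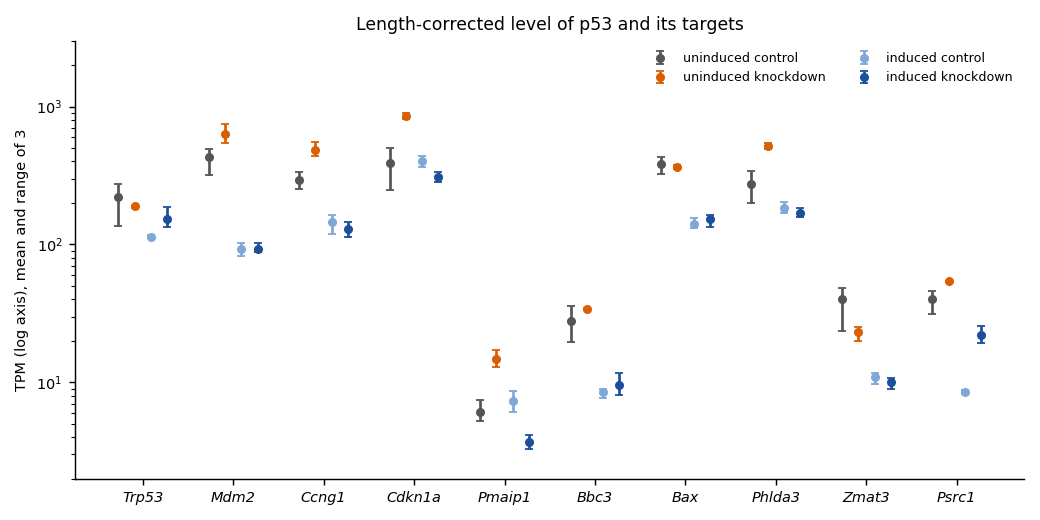
Authors' TPM on a log axis for each gene, by group; points are means of 3 libraries and bars run from the lowest to the highest library. Cdkn1a is the highest of the 10 genes in every group but uninduced control, and Pmaip1 is the lowest in all of them.

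The balance between arrest and apoptosis genes was described as the TPM of Cdkn1a over that of each apoptosis gene in the same library, with no test. Cdkn1a over Bax was 1.15, 1.09 and 0.757 in uninduced control cells and 2.22, 2.52 and 2.29 in uninduced knockdown cells. It was 2.75, 3.18 and 2.60 in induced control and 2.05, 1.77 and 2.23 in induced knockdown cells. Uninduced control is thus the low group, and the knockdown ratio was above the control ratio before induction and below it after, without overlap in either state. Cdkn1a over Bbc3 was 12.6 to 14.6 in uninduced control, 23.6 to 26.7 in uninduced knockdown, 40.4 to 51.8 in induced control and 28.7 to 35.0 in induced knockdown cells, in the same directions. Cdkn1a over Phlda3 moved less, with 1.24 to 1.46, 1.56 to 1.82, 1.78 to 2.41 and 1.80 to 1.86 in the 4 groups in that order. Cdkn1a over Pmaip1 overlapped among 3 groups, at 47.0 to 89.9 in uninduced control, 51.7 to 63.5 in uninduced knockdown and 46.8 to 59.9 in induced control cells, and was 71.6 to 94.1 in induced knockdown cells.

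**Figure D4:**
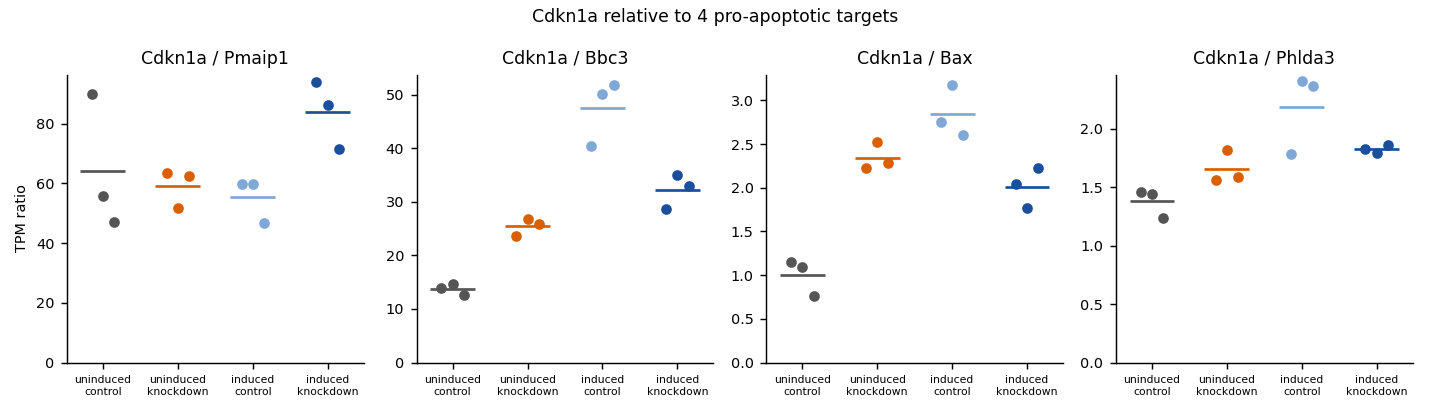
Ratio of the TPM of Cdkn1a to that of each pro-apoptotic target (vertical axis from 0) in the 12 libraries, by group; lines are means of 3. For Bax and Bbc3 the uninduced control libraries are lowest, at up to 1.15 and 14.6, and the 4 groups of Bbc3 do not overlap.

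Other genes of the pathway were taken from a list of 41 genes, of which 37 were tested; with the Zfp143 siRNA 11 rose and 8 fell in uninduced cells, and 3 rose and 7 fell in induced cells. Of all genes tested 15.4% rose and 17.1% fell in uninduced cells, and 3.73% rose and 5.77% fell in induced cells. Among 8 tested arrest genes 4 rose and 1 fell with the Zfp143 siRNA in uninduced cells, by edgeR. In induced cells 0 of the 8 rose and 4 fell, a count that was the same with edgeR, DESeq2 and limma-voom and at an unadjusted p under 0.05. Btg2, an antiproliferative gene, was at 74.0 ± 3.77 CPM in control and 192 ± 13.8 CPM in knockdown uninduced cells (SD, n = 3), a rise with a log2 fold change of 1.37 (SE 0.118, adjusted p = 1.43e-06), and fell from 104 ± 2.61 to 59.2 ± 7.96 CPM in induced cells (-0.81, SE 0.118, adjusted p = 0.000301). Plk3, a stress-responsive kinase gene, rose by 0.96 in uninduced cells (SE 0.166). Gadd45a, a growth arrest and DNA damage gene, fell in both states, by 0.34 in uninduced and by 1.09 in induced cells (SE 0.113 for the latter). With induction in control cells 3 of the 8 rose and 4 fell, against 33.2% and 30.9% of all genes tested: the sestrin genes went opposite ways, Sesn1 by 2.30 (SE 0.138) and Sesn2 by -2.86 (SE 0.170).

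Of 8 tested apoptosis targets 4 rose in uninduced knockdown cells (15.4% of all genes tested), among them the death receptor gene Tnfrsf10b (log2 fold change 0.66, SE 0.110) and Ei24 (0.44, SE 0.120). In induced cells 1 rose, Pidd1, which encodes a death domain protein and was called by edgeR but not by limma-voom (1.08, SE 0.280), and 2 fell, including Ei24 (-0.60, SE 0.121). The shares of all genes tested that rose and fell in induced cells were 3.73% and 5.77%. With induction in control cells 5 of 8 fell and 1 rose, against 30.9% and 33.2% of all genes tested, and Tnfrsf10b and the exonuclease gene Aen were at -1.999 (SE 0.112) and -1.39 (SE 0.131). Of 9 repair and metabolism targets 2 rose and 2 fell in uninduced knockdown cells, where 32.5% of all genes tested were called: Rrm2b, a ribonucleotide reductase subunit gene, was at -1.34 (SE 0.200) and the excision repair gene Ercc5 at 0.54 (SE 0.114). In induced cells 0 of the 9 were called by edgeR, DESeq2 or limma-voom, and 0 had an unadjusted p under 0.05, where edgeR called 9.49% of all genes. With induction in control cells 2 of the 9 rose and 4 fell, where 64.1% of all genes were called, with Tigar, a glycolytic regulator gene, at -1.90 (SE 0.183) and Polk, a translesion polymerase gene, at -1.22 (SE 0.159). The median log2 fold change of the 25 tested genes of these 3 kinds was 0.35 in uninduced and -0.17 in induced knockdown cells, against -0.04 and -0.03 for all tested genes.

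Among 12 tested regulators of p53 1 rose and 5 fell in uninduced knockdown cells, against 15.4% and 17.1% of all genes tested. Ppm1d, which encodes the phosphatase WIP1 that opposes p53 and is itself a p53 target, rose by 0.62 (SE 0.125), and the damage kinase gene Atr fell by 0.79 (SE 0.153). In induced cells 2 rose and 1 fell, against 3.73% and 5.77% of all genes: the checkpoint kinase gene Chek2 was at 0.80 (SE 0.175) and Trp63, a p53 family gene, at -1.13 (SE 0.284). With induction in control cells 1 of the 12 rose and 4 fell, where 64.1% of all genes were called, Chek1 among the latter at -2.92 (SE 0.232). Trp63 was the one that rose, from 1 estimated count in the 3 uninduced control libraries together to 135, 172 and 145 in the induced control libraries. Mdm4, the MDM2 partner, was not called in either siRNA comparison. Cdkn2a, whose ARF product inhibits MDM2, had no counts in any library.

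The BCL2 family stood beside the apoptosis targets. Of 4 tested pro-survival genes 3 rose and 1, Bcl2, fell in uninduced knockdown cells, where 32.5% of all genes tested were called. Mcl1, whose product NOXA binds, was at 165 ± 8.06 CPM in control and 459 ± 11.04 CPM in knockdown cells (SD, n = 3), a rise with a log2 fold change of 1.48 (SE 0.130, adjusted p = 1.78e-06), and Bcl2l1 rose by 0.82 (SE 0.127). Of 7 tested pro-apoptotic family genes outside the members 1 rose, Bad (0.68, SE 0.174), and 2 fell, with Bmf at -0.95 (SE 0.263). In induced cells 0 of the 11 were called by edgeR or limma-voom, where edgeR called 9.49% of all genes. Mcl1 was called lower by DESeq2, and Mcl1 and Bid had an unadjusted p under 0.05 in edgeR, at -0.36 and -0.37. With induction in control cells 5 of the 11 rose and 2 fell, where 64.1% of all genes were called: Bmf was at 3.81 (SE 0.204), Bid at -1.49 (SE 0.145), Bcl2l2 at 0.38 (SE 0.117) and Mcl1 at 0.33 (SE 0.130).

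**Figure D5:**
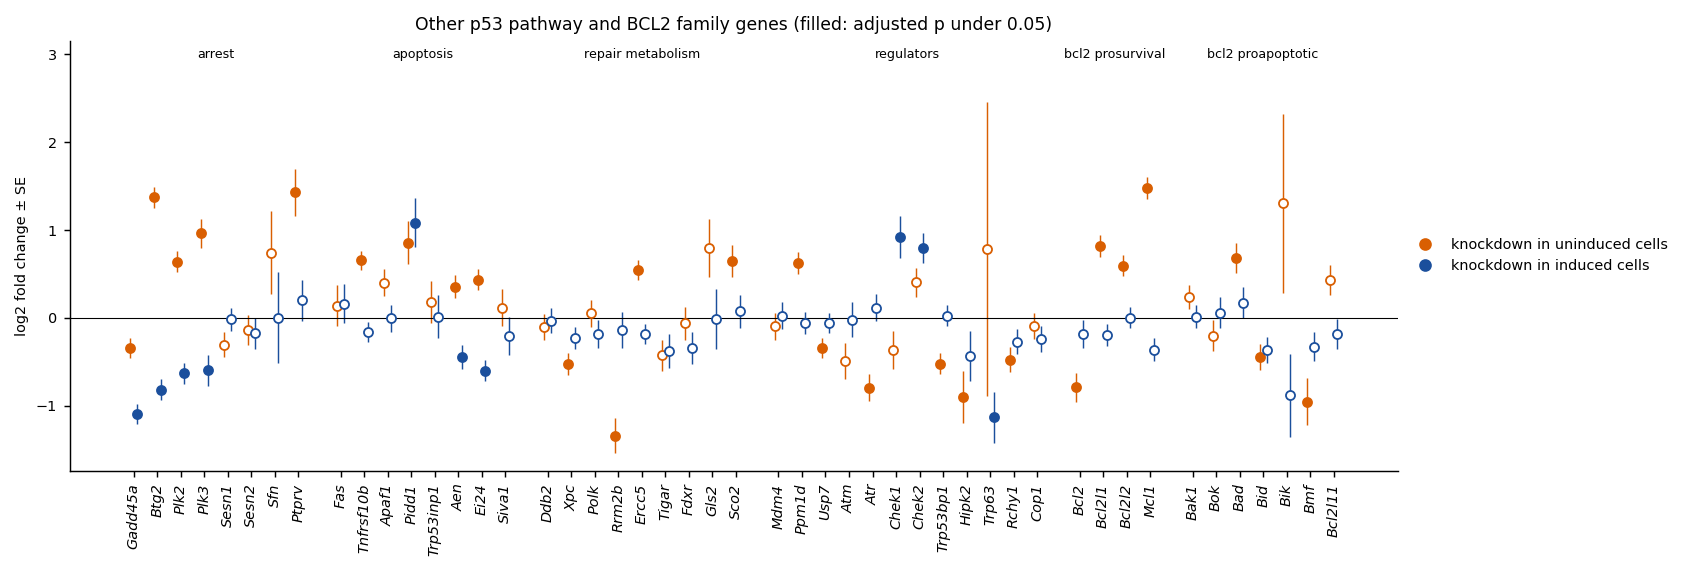
Log2 fold change ± SE (vertical axis) of the other p53 pathway genes and BCL2 family genes with the Zfp143 siRNA in uninduced (orange) and induced (blue) cells, grouped by role; filled points are called. Btg2 is at 1.37 and -0.81, Mcl1 at 1.48 in uninduced cells, and the arrest group has no called point above 0 in induced cells.

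The genes closest in pattern to each member were found among non-members with a mean of at least 5 CPM, as the root-mean-square difference of centred log2 CPM over the 12 libraries. The libraries share group structure and scaling, so this describes likeness and carries no test. Closest to Cdkn1a were Pvr and Mafk (both 0.0938), and Pvr stood at 62.9 ± 2.57, 135 ± 3.49, 49.99 ± 3.26 and 32.9 ± 0.784 CPM in uninduced control, uninduced knockdown, induced control and induced knockdown cells (SD, n = 3). Closest to Psrc1 were the replication origin genes Orc1 (0.176) and Cdc6 (0.271). Closest to Mdm2 were Hmga2 (0.175) and Snhg12 (0.185), to Ccng1 Rabggtb (0.140) and Hsp90aa1 (0.198), and to Pmaip1 Mllt11 (0.238) and Noct (0.291). Closest to Trp53 were Wdr46 (0.0823) and Smyd5 (0.0892), to Bbc3 Gm10252 (0.174) and Srm (0.177), and to Bax Ptgs1 (0.115) and Fbl (0.127). Closest to Phlda3 were Klhl21 (0.150) and Sac3d1 (0.153), and to Zmat3 Rbpj (0.1001) and Nop14 (0.141).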

How the data were processed

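RNA of C2C12 cells was sequenced in 12 libraries, 3 in each of 4 groups. Reads were handled with fastp 1.0.1, STAR 2.7.11b and Salmon on GRCm39, per the submitters' processing notes, with an annotation release that is not given in the sources used here. Per gene, the authors deposited estimated counts that are not normalized. The score values that the authors deposited for each library are their TPM, computed per gene before deposit per the file headers, and a further column gives average transcript length in bases. Of 78810 lines, 535 repeats of an identifier were dropped. Estimated counts were rounded and tested with edgeR 4.0.16 (TMM scaling, robust quasi-likelihood fit over all 4 groups, 8 residual degrees of freedom) on 15030 genes kept by filterByExpr (minimum count 10, minimum total 15), with Benjamini-Hochberg adjustment and a threshold of 0.05. Alternatives used DESeq2 1.42.0, limma-voom (limma 3.58.1), other scalings and filters, a transcript length offset, a replicate block and left-out libraries. The code was tested on simulated data. Besides the members, the text names the 2 called genes of smallest p in each pathway list and siRNA comparison and in control induction, and the 2 genes nearest each member. Mdm4, Cdkn2a, Bcl2, Wrap53, Trp53-ps, the muscle markers Myf5, Mymk, Acta1 and Myog and the value of Gadd45a in uninduced cells were added after their values were seen. Other single markers named beside the most abundant of each list also fall outside that rule. So do the values of Mcl1 and Bid in induced cells. The members and lists were chosen with earlier results of these data known. Counts per library of 13520879 to 19068306 limit the precision of genes with few counts, such as Pmaip1. RefSeq promoter entries are of GRCm38.p6, another build than the files', and were matched by symbol.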

Additional observations from a re-analysis of the deposited data

Results flagged for a closer look

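For 6 of the 10 genes the effect of the Zfp143 siRNA differed between induced and uninduced cells by the interaction test of edgeR. Over all genes tested 22.5% were called in this test. The difference, induced minus uninduced on the log2 scale, was -2.68 for Pmaip1, whose effect was 1.48 before and -1.20 after induction. For Cdkn1a it was -1.70, from 1.21 to -0.49. Phlda3 had a difference of -1.05, Mdm2 one of -0.82 and Ccng1 one of -1.11, with effects that were called in uninduced cells and not called in induced cells. Psrc1 differed the other way, by 0.80, with an effect of 0.49 before and 1.29 after induction. The target transcript Zfp143 was itself lower in uninduced knockdown cells and not called in induced ones, and its part in these differences was not tested. The states also differ in time since transfection and in serum, which cannot be told apart from differentiation.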

How the results depend on the processing

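Over 22 alternatives (21 for the interaction) the number of the 10 genes called was 6 to 8 for the siRNA in uninduced cells, 2 to 3 in induced cells, 8 to 9 for induction in control cells, 10 in each setting for induction in knockdown cells, and 5 to 8 for the interaction. Of the members' log2 fold changes under an alternative 1065 kept their side of the threshold, 12 gained a call, 13 lost one, and no called value changed sign. Leaving out 1 library at a time gave 3492 to 5780 called genes for the siRNA in uninduced cells, 901 to 2014 in induced cells, 8917 to 10176 for induction in control and 9147 to 10779 in knockdown cells, and 2506 to 4750 for the interaction; the 901 is without induced control replicate 2, against 1427 with all libraries. Without both libraries that stand apart, uninduced control replicate 3 and induced knockdown replicate 1, the siRNA in induced cells had 2525 called genes and the interaction 5755, against 3375. When libraries were scaled by their size alone, the siRNA in induced cells had 681 genes higher and 631 lower, against 560 and 867, and induction in knockdown cells 6597 and 3371, against 5406 and 4526; the median of all genes moved from 0.03 to 0.21 for induction in control and from 0.10 to 0.35 in knockdown cells. The cause of these changes was not tested. Samples that share only a replicate number did not deviate together throughout (correlations of -0.0963 to 0.306 over 18 pairs, against -0.279 to 0.249 over 36 pairs of different number). With the replicate number as a block 7, 3, 8, 10 and 6 of the 10 genes were called in the 5 comparisons, and 5115, 1501, 9750, 10079 and 3564 of all genes.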
